A study of Oryza sativa with 3 samples.

Results

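The genes described here are 38 rice loci of auxin signalling, auxin conjugation and auxin transport, of 29690 loci with a probe on the array. They comprise 27 loci of Aux/IAA repressors, 5 of GH3 enzymes and 6 of auxin carriers of the PIN and AUX1 families. The loci were listed by their identifiers, and all 38 had at least 1 probe. Each locus is represented by its probe of highest mean signal among those with a value on every array.

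RNA came from roots of dark-grown rice seedlings (Oryza sativa, cultivar TN67), labelled as 6 days old. The first group was exposed to 1 mM vanadium, called vanadate in the study's design, and its RNA was labelled with Cy5. The second group was exposed to water, and its RNA was labelled with Cy3. Each of the 3 biological replicates combined RNA taken after 1 h and after 3 h, so values belong to no single time, and was hybridised on 1 two-channel array that held both groups. No genetic modification is given for either group, and the number of plants behind a replicate is not given in the sources used here. On 0 of the 3 arrays were the dyes exchanged, so a dye effect and a vanadate effect cannot be told apart. In whole roots, a change in the share of a cell type and a change of RNA per cell cannot be told apart either.

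Auxin is a plant hormone that controls root growth, lateral root formation and gravitropism. Aux/IAA proteins bind auxin response factors and repress their target genes. When auxin joins an Aux/IAA protein to a TIR1/AFB receptor, the repressor is degraded and the targets are transcribed, and many Aux/IAA and GH3 genes are themselves such targets. GH3 enzymes attach amino acids to auxin or to other acidic hormones. PIN proteins carry auxin out of cells and AUX1 proteins carry it in, which together sets the direction of its flow through the root.

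All log2 ratios are vanadate over water. A locus was called where the mean log2 ratio over the 3 arrays had a limma adjusted p (Benjamini-Hochberg over all tested probes) under 0.05. Of 22007 tested loci, 49.8% were called, 29.1% as higher and 20.7% as lower, and their median log2 ratio was 0.02. Of the 38 loci, 34 passed the filter on dim probes, and of these 18 were higher, 5 were lower and 11 were not called. At an unadjusted p under 0.05 the number was also 23. The vanadate and water levels did not overlap over the 3 arrays in 20 of the 34 tested members, against 40.4% of all tested loci. The log2 ratios of the 34 members gave a Pearson's r of 0.972 between replicate 1 and replicate 2, of 0.959 between replicate 1 and replicate 3 and of 0.976 between replicate 2 and replicate 3. These correlations run across genes that share the arrays, and genes are not independent replicates.

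**Figure D1:**
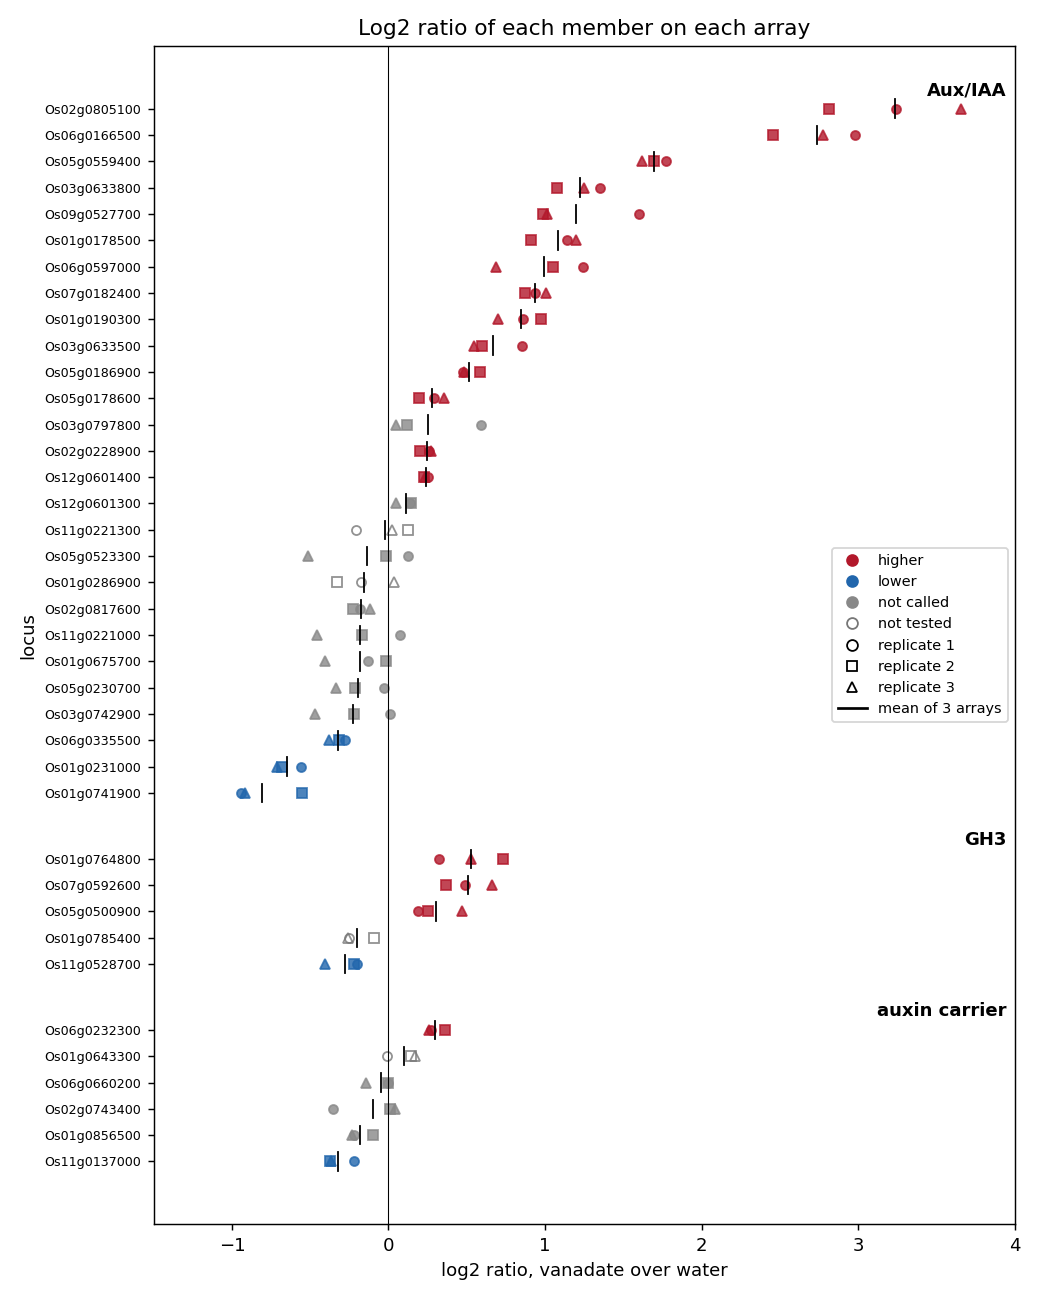
Log2 ratio of vanadate over water (horizontal axis) for each of the 38 loci (vertical axis), grouped by family, on each of the 3 arrays (points), with the mean of the arrays as a bar. Filled colours give the limma call and open points the 4 untested loci. Os02g0805100 and Os06g0166500 lie furthest right, at means of 3.24 and 2.74, while the means of the GH3 and carrier loci stay between -0.32 and 0.53.

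Between 73.7% and 76.1% of gene spots in the vanadate channel, and between 69.0% and 75.3% in the water channel, were well above background. Of 5 loci taken as root markers, 4 were well above background throughout, and the locus taken as SCARECROW (Os11g0124300) was so in neither channel. Of the 4 tested root marker loci 1 rose, Os02g0662000 (1.60-fold higher in vanadate). Another 2 fell, those taken as silicon transporters, Os02g0745100 (4.17-fold lower in vanadate) and Os03g0107300 (2.03-fold lower). Among all tested loci 29.1% rose and 20.7% fell. The 5 loci taken as leaf markers had signal well above background on at least 1 array in each channel. Their summed intensity was 2665, 2790 and 3349 in vanadate and 2337, 2331 and 5059 in water for replicates 1, 2 and 3. Os03g0592500 was the brightest of the 5 in each channel on every array, at log2 levels of 10.80 to 11.37, and weighed most in each sum. Of these 5, 1 rose (Os03g0592500) and 0 fell, beside 29.1% and 20.7% of all tested loci. The water sum of replicate 3 lay above the other 5 sums, and Os12g0291100, Os01g0600900 and Os09g0346500 had log2 ratios of -1.71, -1.70 and -2.93 on that array. The part of other cell types in the results below was not tested.

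The largest changes among the 38 loci were those of Aux/IAA repressors. Under vanadate 14 of the 25 tested Aux/IAA loci rose, 3 fell and 8 were not called. Among the 14, Os05g0186900 passed the filter only through its vanadate channel, and with the strict filter 13 of 22 rose. The counts of 14 and 3 are 56.0% and 12% of the tested Aux/IAA loci, beside 29.1% higher and 20.7% lower among all tested loci. The median log2 ratio of the 25 was 0.25, with medians of 0.29, 0.20 and 0.27 on replicates 1, 2 and 3, beside 0.02 for all tested loci. At least 2-fold rises made up 6 of the 25 (24%) and 8.5% of all tested loci, and at least 2-fold falls made up 0 of the 25 and 1.51%. All 3 ratios lay above 0 in 16 Aux/IAA loci, below 0 in 6 and on both sides in 3.

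Os02g0805100 rose most. Its normalized log2 level was 13.43, 12.88 and 13.85 in vanadate and 10.19, 10.06 and 10.19 in water on replicates 1, 2 and 3. The water levels were nearly equal, while the vanadate levels spread over almost a log2 unit, and the channels did not overlap. The log2 ratio was 3.24 ± 0.42 (SD, n = 3; adjusted p = 2.19e-05 in limma), a 9.43-fold rise. Only 183 of the 22007 tested loci (0.832%) had a higher log2 ratio.

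Os06g0166500 was the second. Its level was 12.39, 11.45 and 12.79 in vanadate and 9.42, 8.99 and 10.01 in water. Replicate 2 was lowest in both channels, and the channels did not overlap. Its log2 ratio was 2.74 ± 0.26 (SD, n = 3; adjusted p = 1.32e-05 in limma), a 6.66-fold rise, with 1.37% of tested loci higher. These 2 repressor loci held the first and the second place among the 34 tested members on every array.

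Os05g0559400 held the third place on every array. It had levels of 12.35, 12.38 and 11.91 in vanadate and 10.58, 10.68 and 10.29 in water, and the difference was much the same on each array. Its log2 ratio was 1.70 ± 0.08 (SD, n = 3; adjusted p = 1.96e-05 in limma), a 3.24-fold rise. All 5 probes of this locus were called higher, at log2 ratios of 1.57 to 1.71.

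Another 3 Aux/IAA loci rose at least 2-fold. Os03g0633800 had levels of 11.32, 11.27 and 10.97 in vanadate and 9.97, 10.19 and 9.72 in water, a 2.34-fold rise at a log2 ratio of 1.22 ± 0.14 (SD, n = 3). Os09g0527700 had levels of 10.01, 9.50 and 9.89 in vanadate and 8.41, 8.51 and 8.88 in water, a 2.30-fold rise at 1.20 ± 0.34 (SD, n = 3), and its ratio of 1.60 on replicate 1 exceeded the 0.99 and 1.01 of the other arrays. Os01g0178500 had levels of 12.65, 12.16 and 13.07 in vanadate and 11.52, 11.25 and 11.87 in water, a 2.12-fold rise at 1.08 ± 0.15 (SD, n = 3). In all 3 loci each vanadate level lay above each water level, with limma adjusted p of 0.00011, 0.000745 and 0.000206. The other 3 probes of Os01g0178500 were also called higher, at 1.05 to 1.19.

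**Figure D2:**
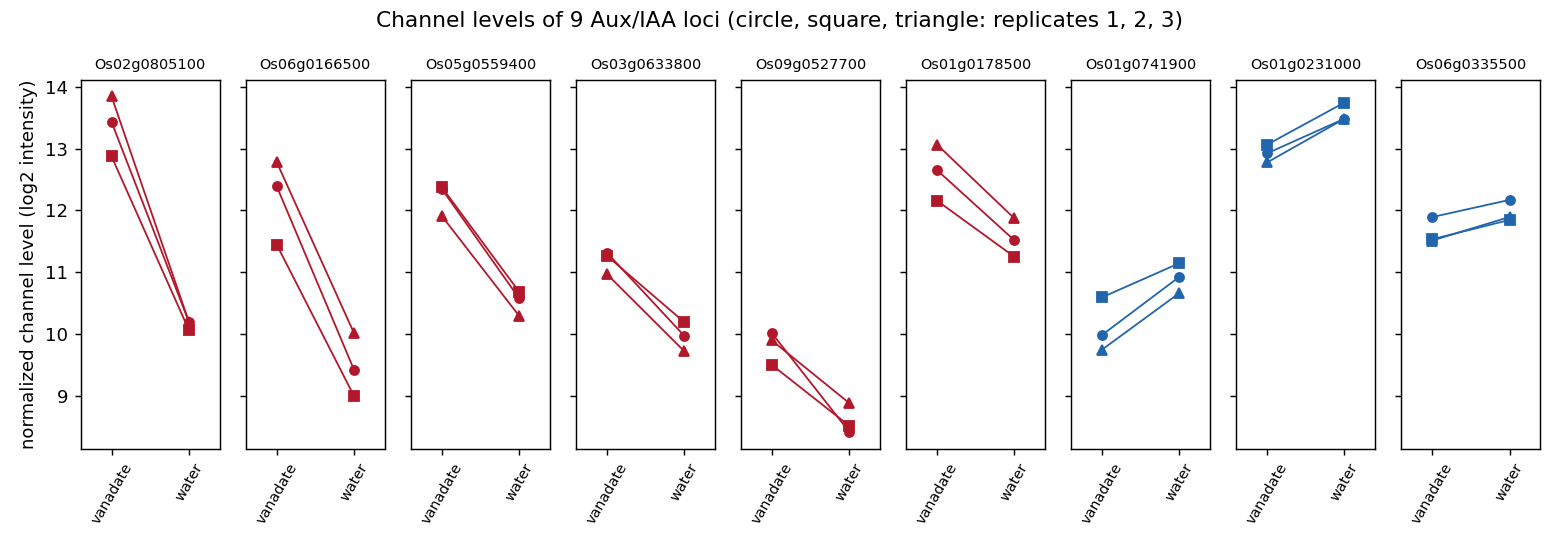
Normalized log2 intensity (vertical axis) in the vanadate and water channels of the 6 Aux/IAA loci that rose at least 2-fold (red) and the 3 that fell (blue), with a line for each of the 3 arrays. Levels may be compared within a locus, not between loci, since each is measured by a different probe. The slope runs the same way on all 3 arrays in each of the 9 loci.

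The other 8 Aux/IAA loci that rose did so by less than 2-fold. Os06g0597000 lay just under that fold, at a log2 ratio of 0.99 ± 0.28 (SD, n = 3), with 1.24, 1.05 and 0.69 on replicates 1, 2 and 3. Os07g0182400 rose by 0.94 ± 0.07 and Os01g0190300 by 0.84 ± 0.14 on the log2 scale (SD, n = 3 each). In these 3 loci the channels did not overlap. Os03g0633500, the neighbour of Os03g0633800 by locus number, rose by 0.67 ± 0.17 on the log2 scale (SD, n = 3). The probe of Os05g0186900 was dim in water on all arrays but 1, and its log2 ratio of 0.51 ± 0.06 (SD, n = 3) was 1.15 with the processed signals. The remaining 3 rises were small: Os05g0178600 at 0.28, Os02g0228900 at 0.25 and Os12g0601400 at 0.24. Each of these 3 calls was lost without replicate 1, without replicate 2 and without replicate 3, and under median centring, with adjusted p in limma of 0.0793 to 0.608. Os02g0228900 (adjusted p = 0.369) and Os12g0601400 (adjusted p = 0.0869) were not called with the processed signals either. The neighbouring locus Os12g0601300 was at 0.11 ± 0.05 (SD, n = 3; adjusted p = 0.275 in limma), and the difference between the neighbours was not tested.

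Falls were few among the repressors. Os01g0741900 had levels of 9.98, 10.59 and 9.74 in vanadate and 10.93, 11.15 and 10.66 in water, so every vanadate level lay below every water level. Its log2 ratio was -0.80 ± 0.22 (SD, n = 3; adjusted p = 0.00127 in limma), a 1.75-fold fall, and 2.84% of tested loci were lower. Os01g0231000 had levels of 12.93, 13.07 and 12.78 in vanadate and 13.49, 13.75 and 13.49 in water, again without overlap. Its log2 ratio was -0.65 ± 0.08 (SD, n = 3; adjusted p = 0.00103 in limma), a 1.57-fold fall. Os06g0335500 had levels of 11.89, 11.53 and 11.51 in vanadate and 12.17, 11.85 and 11.89 in water. Its channels overlapped across arrays, yet vanadate was the lower on each array, at -0.32 ± 0.05 (SD, n = 3; adjusted p = 0.0143 in limma). That call was lost without replicate 2 (adjusted p = 0.0847 in limma), and the second probe of the locus was called lower at -0.49.

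The 8 tested Aux/IAA loci that were not called had log2 ratios of -0.23 to 0.25. Os03g0742900 was at -0.23 ± 0.24, Os05g0230700 at -0.19 ± 0.15, Os01g0675700 at -0.18 ± 0.20, Os11g0221000 at -0.18 ± 0.27 and Os02g0817600 at -0.18 ± 0.05 (SD, n = 3 each). Os05g0523300 was at -0.13 ± 0.33 and was well above background on only 2 arrays in vanadate and 1 in water. Os03g0797800 was at 0.25 ± 0.30, with 0.59 on replicate 1 and 0.12 and 0.05 on the others. Of the 8, Os02g0817600 and Os01g0675700 had every vanadate level below every water level, and Os01g0675700 was called lower at -0.32 with the processed signals (adjusted p = 0.0485 in limma). The untested Os01g0286900 was well above background only in water, on 1 array, and Os11g0221300 on 0 arrays in either channel.

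The tested GH3 enzymes changed by less than 2-fold. Of 5 loci 4 were tested, 3 rose, 1 fell and 0 changed 2-fold, beside 29.1% higher and 20.7% lower among all tested loci. Their median log2 ratio was 0.41, beside 0.25 for the tested Aux/IAA loci and 0.02 for all tested loci. Under median centring 0 of the 4 were called, with unchanged directions. Os01g0764800 had levels of 9.37, 9.44 and 9.66 in vanadate and 9.05, 8.71 and 9.13 in water, a log2 ratio of 0.53 ± 0.21 (SD, n = 3; adjusted p = 0.00627 in limma). Os07g0592600 had levels of 8.93, 8.94 and 9.37 in vanadate and 8.44, 8.57 and 8.71 in water, a log2 ratio of 0.51 ± 0.14 (SD, n = 3; adjusted p = 0.00445 in limma). In both loci each vanadate level lay above each water level, and the rises were 1.44-fold and 1.42-fold.

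The other GH3 loci were closer to the background signal. Os05g0500900 had levels of 8.10, 7.43 and 7.73 in vanadate and 7.92, 7.17 and 7.26 in water, with water well above background on 2 arrays. Its channels overlapped across arrays, and its log2 ratio was 0.30 ± 0.15 (SD, n = 3; adjusted p = 0.0303 in limma). The adjusted p in limma was 0.0986 when replicate 2 was left out and 0.109 when replicate 3 was left out. The call was also lost with the processed signals (adjusted p = 0.0626 in limma), as with the authors' deposited ratios that repeat them. Channels as separate samples (adjusted p = 0.0539) and median centring (adjusted p = 0.119) lost it too. Os11g0528700 had levels of 7.17, 7.32 and 7.52 in vanadate and 7.37, 7.54 and 7.92 in water. Vanadate was the lower on each array although the ranges overlapped, and the log2 ratio was -0.27 ± 0.11 (SD, n = 3; adjusted p = 0.0343 in limma). That fall was lost whichever replicate was left out, with adjusted p in limma of 0.0613 to 0.123. With the processed signals it was larger, at -0.75 (adjusted p = 0.00404 in limma). The untested Os01g0785400 did not stand out from background on any array, with levels of 6.36, 6.44 and 6.50 in vanadate and 6.61, 6.53 and 6.76 in water.

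Among the auxin carriers 5 of 6 loci were tested, of which 1 rose, 1 fell and 3 were not called, with a median log2 ratio of -0.10. These shares of 20% higher and 20% lower stand beside 29.1% and 20.7% of all tested loci. Os06g0232300 had levels of 12.11, 12.02 and 12.82 in vanadate and 11.84, 11.66 and 12.56 in water. Its ratios of 0.27, 0.36 and 0.26 were alike although the channel ranges overlapped, and the mean was 0.30 ± 0.05 (SD, n = 3; adjusted p = 0.0197 in limma). That call was lost when replicate 1 (adjusted p = 0.0524) or replicate 2 (adjusted p = 0.154) was left out and with median centring in place of loess (adjusted p = 0.396). It was also lost with the processed signals (0.12, adjusted p = 0.268 in limma), as with the authors' deposited ratios that repeat them. With channels as separate samples it was lost too (adjusted p = 0.0764 in limma). Os11g0137000 had levels of 7.41, 7.38 and 7.31 in vanadate and 7.63, 7.76 and 7.67 in water, without overlap. Its log2 ratio was -0.32 ± 0.09 (SD, n = 3; adjusted p = 0.0174 in limma). The call did not hold under median centring (adjusted p = 0.0971 in limma) or without replicate 2 (adjusted p = 0.125 in limma). A larger fall of -0.86 came from the processed intensities (adjusted p = 0.00441 in limma). The authors' deposited ratios gave the same value, being nearly all the same processed ratios, and are not a separate measurement.

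The remaining carriers were not called. Os02g0743400 had levels of 14.65, 14.91 and 15.01 in vanadate and 15.00, 14.90 and 14.97 in water, with a lower level in vanadate only on replicate 1. Os06g0660200 had levels of 12.73, 12.89 and 12.37 in vanadate and 12.73, 12.90 and 12.51 in water, a log2 ratio of -0.05 ± 0.08 (SD, n = 3). Os01g0856500 had levels of 12.25, 12.40 and 12.46 in vanadate and 12.47, 12.50 and 12.69 in water, at -0.18 ± 0.07 (SD, n = 3; adjusted p = 0.0975 in limma), and was called lower at -0.35 with the processed signals (adjusted p = 0.033 in limma). Its 4 probes disagreed, since 1 other probe was called higher at 0.29 and 1 lower at -0.24, and no direction can be given for this locus. The untested Os01g0643300 was dim in both channels throughout, with levels of 6.47, 6.79 and 6.72 in vanadate and 6.48, 6.65 and 6.55 in water.

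**Figure D3:**
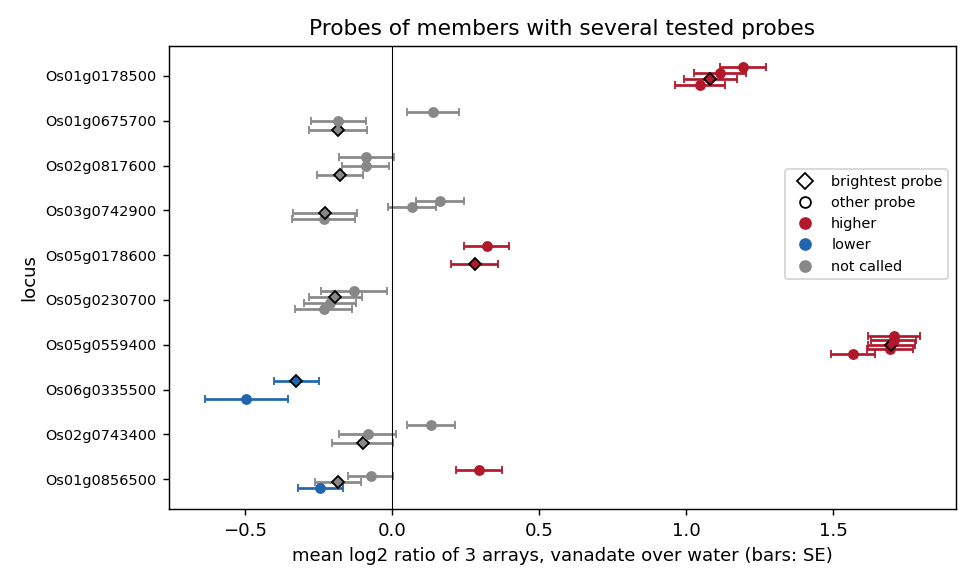
Mean log2 ratio of vanadate over water (horizontal axis, bars are limma SE, n = 3 arrays) for each tested probe of the 10 loci with several tested probes (vertical axis). The brightest probe is a diamond. The 5 probes of Os05g0559400 lie between 1.57 and 1.71, while those of Os01g0856500 fall on both sides of 0.

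Several members were measured more than once, since the 38 loci had 66 probes and 13 loci had several. The called members had 9 other tested probes, and all 9 were called in the direction of the brightest probe. They belonged only to Os05g0559400, Os01g0178500, Os05g0178600 and Os06g0335500. Most called members, among them Os02g0805100 and Os06g0166500, had no other probe to compare. Disagreement was seen among loci that were not called. In Os01g0675700, Os03g0742900 and Os02g0743400, as in Os01g0856500, the tested probes lay on both sides of 0.

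Other loci of the pathway, like the marker loci above, were listed from background knowledge of rice locus identifiers, with no annotation at hand to check them. Of 23 loci taken as auxin response factors, the DNA-binding partners of Aux/IAA proteins, 20 were tested, 3 rose, 4 fell and 13 were not called, beside the 29.1% and 20.7% of all tested loci. Their median log2 ratio was -0.14. Os01g0927600 rose by 0.59 ± 0.10 and Os11g0523800 by 0.44 ± 0.09 on the log2 scale (SE). Os05g0563400 was at -0.60 ± 0.08 and Os12g0479400 at -0.40 ± 0.08 (SE), both called lower. With the processed signals 1 of the 20 rose and 10 fell, and without replicate 2 only 1 fell. Of 2 loci taken as TIR1/AFB receptors 1 was tested and not called, Os04g0395600 at 0.06 ± 0.08 (SE).

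Those loci taken as enzymes of auxin synthesis that passed the filter were called higher. Of 9 TAA and YUCCA loci 6 were tested and all 6 rose, with log2 ratios of 0.28 to 0.71 and a median of 0.51, while 29.1% of all tested loci rose. The largest was Os03g0162000 at 0.71 ± 0.14 (SE), with its lowest ratio of 0.36 on replicate 3, followed by Os04g0128900 at 0.58 ± 0.08 (SE), with 0.63, 0.53 and 0.58 on replicates 1, 2 and 3. In 3 of the 6 the water signal was dim on at least 1 array, and of these Os12g0512000 passed the filter only through vanadate. With the strict filter only 3 loci were tested, and these 3 were called higher. Under median centring 2 of the 6 were called higher, without replicate 1 there were 4 and without replicate 2 there were 3, while all 6 stayed above 0.

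Among further carriers the calls were falls. Of 9 further loci taken as PIN and AUX1-like carriers 7 were tested, 0 rose, 4 fell and 3 were not called, with a median log2 ratio of -0.34, beside 29.1% higher and 20.7% lower among all tested loci. Of the 4 that fell, Os09g0505400 passed the filter only through its water channel, and with the strict filter 3 of 6 fell. Os12g0133800 was at -0.60 ± 0.08 (SE), with -0.51, -0.58 and -0.70 on replicates 1, 2 and 3. Os01g0802700 was at -0.59 ± 0.17 (SE), but at -1.04, -0.65 and -0.10 on replicates 1, 2 and 3. Without replicate 1, 2 of the 7 fell and 1 rose. Of 5 further loci taken as GH3 enzymes 2 were tested and 1 rose, Os05g0586200 at 0.66 ± 0.15 (SE), and 0 of the 2 were called higher without replicate 1, with the processed signals or with median centring.

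**Figure D4:**
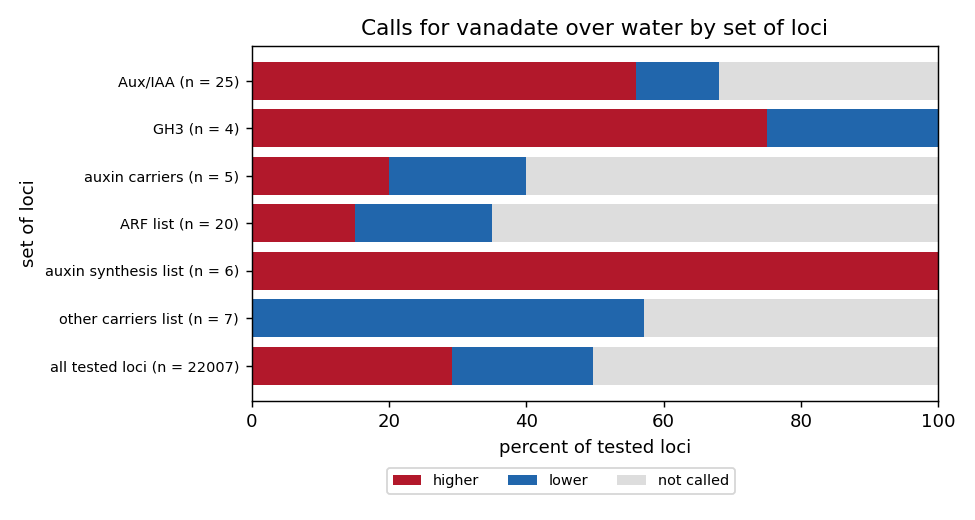
Percent of tested loci (horizontal axis) called higher (red) or lower (blue) in vanadate than in water, or not called (grey), for the 3 families, 3 lists of other pathway loci and all 22007 tested loci. Higher calls make up 56.0% of the 25 tested Aux/IAA loci and 29.1% of all tested loci.

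Most of the larger Aux/IAA changes did not depend on the scaling. Among the alternatives, the scaling differed only under median centring and in the processed signals, which the authors' deposited ratios nearly all repeat. Under each of the 13 alternatives run, 13 of the 23 called members kept their call and direction where they were tested, among them the 11 Aux/IAA loci that rose by at least 0.51 on the log2 scale, with Os01g0231000 and Os01g0741900. Of the called members, 0 turned direction under any alternative. The other filters, flagged spots kept, the slide block, the intensity trend and separate channels left the members' log2 ratios as they were. Those runs bear on the calls and could not turn a direction. In the processed signals, which are not centred, the median of all tested loci was at -0.12, and higher calls made up 42.1% of all calls against 58.5% here. Among the Aux/IAA calls 75% were then higher, against 82.4% here.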

How the data were processed

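Per the file headers, scanner output came from Agilent Feature Extraction 10.7.1.1. Its median spot and local background intensity is uncorrected, and its processed intensity is background-subtracted and dye-normalized, per the file headers. A value table deposited by the authors gives log2 ratios. On each array at least 99.1% of them matched the processed red over green ratio to within 0.001 on the log2 scale. They are thus dye-normalized ratios of vanadate to water. Their medians of -0.19, -0.21 and -0.05 on replicates 1, 2 and 3 were not centred at 0.

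From the median signals, background was corrected with normexp (offset 50) and log2 ratios were normalized by loess within each array in limma 3.58.1 under R 4.3.3. Spots flagged as outliers (172, 129 and 958 of 43144 gene spots) were left out, spots of a probe averaged, and 0 gene spots were saturated. Testing required values from 3 arrays and signal well above background, in either channel, on 2 or more of them (31159 of 42418 gene probes). The mean log2 ratio was tested against 0 with lmFit and eBayes, adjusted over all tested probes. The SD is that of the 3 ratios and the SE is limma's. Channel levels were scaled between arrays by Aquantile. The fit was tested on simulated data, made of independent noise with added changes. Those data held no dye effect and no effect shared by an array, so they do not bear on the calls given here. Replicates 1 and 2 shared a slide, and replicate 3 was on another slide. The number of arrays limits the precision.

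Members and lists were chosen with earlier results of these data known. Values on every array are given for the called Aux/IAA loci of at least 2-fold change, for the 3 largest called where a direction had none, and for every GH3 and carrier locus on the array. Of the other lists, up to 2 called loci per direction are named. Os11g0124300, Os02g0662000, Os04g0395600, Os12g0512000, Os09g0505400 and the silicon transporter and leaf marker loci were chosen after their values were seen. No table used here pairs these locus identifiers with gene names or sequences.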

Additional observations from a re-analysis of the deposited data

How the results depend on the processing

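Alternatives were the processed signals, the authors' value table, median centring, 2 other filters, the mean over probes, flagged spots kept, slide as a fixed block, an intensity trend in the spread, channels as separate samples and leaving out each replicate. The counts of Aux/IAA loci stayed within 1.5 times under each of them. With the processed signals 0 carriers were higher and 2 lower, and 15 other pathway loci were lower against 8. The authors' values gave the same counts, being nearly all the same ratios. Of all loci 6833 were lower by the processed signals and 6832 by the authors' values, against 4548. Under median centring 4200 loci were higher against 6406, 0 GH3 and 0 carrier loci were called in either direction, and 3 other pathway loci were higher against 10. With channels as separate samples, a fit with no replicate block, 0 carriers were higher. Leaving out 1 replicate gave 2776 (without replicate 2) to 3743 loci lower, 0 GH3 loci lower, 0 to 1 carriers higher, 0 to 1 carriers lower and 5 to 7 other pathway loci lower. Os02g0743400, not called, turned to a log2 ratio of 0.016 under median centring and had -0.17 to 0.026 with 1 replicate left out (0.026 without replicate 1). Os05g0523300, not called, had -0.26 to 0.054 with 1 replicate left out (0.054 without replicate 3). The cause of these changes was not tested. Over the 34 tested members and their alternatives, 394 values kept call and direction, 37 lost a call, 4 gained one and 3 turned. These counts include the alternatives that left the log2 ratio as it was, where none could turn. The fit of ratios is itself paired, since each array sets vanadate against water of 1 replicate. The fit of channels as separate samples linked both channels of a spot through an estimated correlation of 0.714. It is therefore not an unpaired form. For the 4 untested loci, signal over background limits what can be seen.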
